A study of Mus musculus with 12 samples.

Results

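Sterol and fatty acid synthesis genes were followed in humeri, the long bones of the upper forelimb, of mouse embryos. The set held 37 genes: enzymes that make cholesterol and fatty acids, the SREBP proteins and partners that control them, and a few sterol carriers. Members were all probe sets, other than array controls, whose platform annotation gave exactly 1 gene symbol on that list. Of the 37 genes, 36 had such a probe set, and together they had 91 of the 36701 probe sets on the arrays. In all, 15964 genes had a probe set with 1 symbol. Acat2, an acetyl-CoA acetyltransferase, had none with its symbol alone and was not analysed here. The genes were chosen by function, but with genotype and replicate differences of these data in view. Both contrasts are therefore given as descriptions, and counts and p-values of members are not independent evidence.

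Both groups were humeri at stage E14.5: wild type at the Runx2 locus, and Runx2-/-, called Runx2-null below. Runx2 is the transcription factor that osteoblasts need in order to form, and it also acts in cartilage cells that enlarge before bone replaces them. Each genotype had 2 RNA pools, numbered 1 and 2, and each wild-type pool drew on about 75 humeri and each Runx2-null pool on about 60. RNA of each of the 4 pools, 10 µg, was labelled with biotin and hybridised once to each of 3 array types (A, B and C), 12 arrays in all. The strain, the construction of the allele and the litters are not given in the sources used here. Per the labels the pools are biological replicates. All p-values cover only the spread between these pools. Runx2 itself was not analysed here. The labels were therefore checked on Ibsp, a bone matrix protein made by osteoblasts. One array A probe set read 1680 and 2221 in the wild-type pools but 8.4 and 5.4 in the Runx2-null pools. Another Ibsp probe set separated them far less, at 74.4 and 38.5 against 34.4 and 17.0. On array B, Acp5, a gene of bone-resorbing osteoclasts, read 503 and 797 against 72.6 and 183.

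Cholesterol is built from acetyl-CoA through mevalonate, isoprenoid diphosphates, squalene and lanosterol. Fatty acids start from the same acetyl-CoA, are chained by fatty acid synthase and are then elongated and desaturated. When sterols in the endoplasmic reticulum run low, the escort protein SCAP carries the membrane-bound SREBP factors to the Golgi, where they are cut free to switch on most of these enzymes, and INSIG proteins hold SCAP back when sterols are plentiful. SREBP factors work at promoters together with the CCAAT-binding factor NF-Y and with SP1.

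The promoter windows of 4 members are shown, picked for their genotype difference or for their replicate difference in the results below. Fasn and Hmgcs1 are those of the 4 genes called lower in Runx2-null pools that have an entry in the promoter table, and Scd1 and Fdps have none there. Acly and Msmo1 had the largest rises in replicate 2. Each window runs from 250 bases before to 50 bases after the transcription start in RefSeq, assembly GRCm38.p6, and is written 5′ to 3′ on the gene's strand. Capitals mark CCAAT, or ATTGG on the other strand, and the sterol regulatory element TCACNCCAC, or GTGGNGTGA. The windows lie at chr11:120824498-120824797 (minus strand, Fasn), chr13:119690101-119690400 (plus strand, Hmgcs1), chr11:100527951-100528250 (minus strand, Acly) and chr8:64733529-64733828 (minus strand, Msmo1).
Fasn: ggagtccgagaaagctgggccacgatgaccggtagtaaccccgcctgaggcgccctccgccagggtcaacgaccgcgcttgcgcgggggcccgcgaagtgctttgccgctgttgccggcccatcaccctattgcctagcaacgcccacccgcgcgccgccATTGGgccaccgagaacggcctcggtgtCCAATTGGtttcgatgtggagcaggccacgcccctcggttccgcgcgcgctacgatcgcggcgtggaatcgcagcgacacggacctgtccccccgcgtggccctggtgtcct
Hmgcs1: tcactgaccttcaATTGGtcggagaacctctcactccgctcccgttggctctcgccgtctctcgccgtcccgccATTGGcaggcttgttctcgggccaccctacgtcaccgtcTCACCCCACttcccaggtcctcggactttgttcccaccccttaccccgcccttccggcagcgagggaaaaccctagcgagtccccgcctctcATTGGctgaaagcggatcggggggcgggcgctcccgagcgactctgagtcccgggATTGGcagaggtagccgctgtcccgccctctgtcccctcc
Acly: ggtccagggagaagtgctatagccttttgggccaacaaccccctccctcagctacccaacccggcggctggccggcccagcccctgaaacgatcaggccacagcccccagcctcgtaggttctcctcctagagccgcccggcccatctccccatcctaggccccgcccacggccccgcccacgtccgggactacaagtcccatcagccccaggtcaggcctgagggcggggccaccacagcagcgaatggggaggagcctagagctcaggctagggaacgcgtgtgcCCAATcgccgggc
Msmo1: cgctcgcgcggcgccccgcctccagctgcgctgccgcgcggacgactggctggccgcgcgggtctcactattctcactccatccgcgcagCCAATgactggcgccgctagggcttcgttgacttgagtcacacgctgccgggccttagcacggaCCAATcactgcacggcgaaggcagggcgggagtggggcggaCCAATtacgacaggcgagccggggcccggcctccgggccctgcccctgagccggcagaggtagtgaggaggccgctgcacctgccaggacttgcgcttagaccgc

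The Hmgcs1 window held 1 sterol regulatory element, starting at position -137 from the transcription start, and 4 CCAAT boxes. The Fasn window held 3 CCAAT boxes, of which a pair overlaps on opposite strands, the Msmo1 window 3 and the Acly window 1, and none of these held the 9-letter sterol element. Across the set, 30 members had a promoter entry. CCAAT stood in 25 of those 30 genes (83.3%), against 41.1% of the 27025 genes with an entry. The GC box GGGCGG, or CCGCCC, stood in 24 of 30 (80.0%), against 38.2% of genes. The sterol element stood in 1 of 30, Hmgcs1, against 1.44% of genes. These are letter matches in 300-base windows and say nothing on whether a factor binds there.

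Signals are the deposited MAS5 intensities, 1 per probe set and array, and they can be set side by side only within a probe set. Differences are given as log2 of the signal plus a small constant, with the standard error (SE) of a limma fit and a p adjusted over all 23193 tested probe sets, called at 0.05. Probe sets were tested if 2 or more of the 4 arrays had them above that array's 40th percentile of signal, and 71 of the 91 member probe sets were. A probe set bright in a single genotype also passes this filter, so counts over tested probe sets do not stand for all members. Acss2, which activates acetate, and Srebf2, the SREBP factor for sterol genes, had none tested on arrays A and B. The Acss2 probe set read 26.7 and 8.1 in wild-type pools 1 and 2, and 30.4 and 6.9 in Runx2-null pools 1 and 2. The Srebf2 probe set read 3.0 and 1.7 against 1.0 and 8.4, near the bottom of the scale on every array.

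The replicate number was also a scanning batch. Per the array files, replicate 1 arrays were scanned with an HP scanner at 3 µm pixels and 2 scans, and replicate 2 arrays with an M10 scanner at 2.5 µm and 1 scan, with no scan day shared between the numbers. On arrays A and B the control probe sets followed the replicate number. The 18S rRNA signals on array A summed to 1863 and 2341 in the replicate 1 pools and to 386 and 318 in the replicate 2 pools, and the 3′ to 5′ ratio of actin was 1.07 to 1.09 against 1.68 to 1.95. On array C the same controls followed the labelled genotype instead: the 18S sum was 6880 and 9311 on the wild-type arrays and 1975 and 1379 on the Runx2-null arrays. The control probe sets of the C arrays thus go against the order seen on A and B, and the labels of those arrays are in doubt, although their scanners match their replicate numbers. Results below are from arrays A and B, where 56 member probe sets of 34 genes were tested, with array C given apart.

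**Figure D1:**
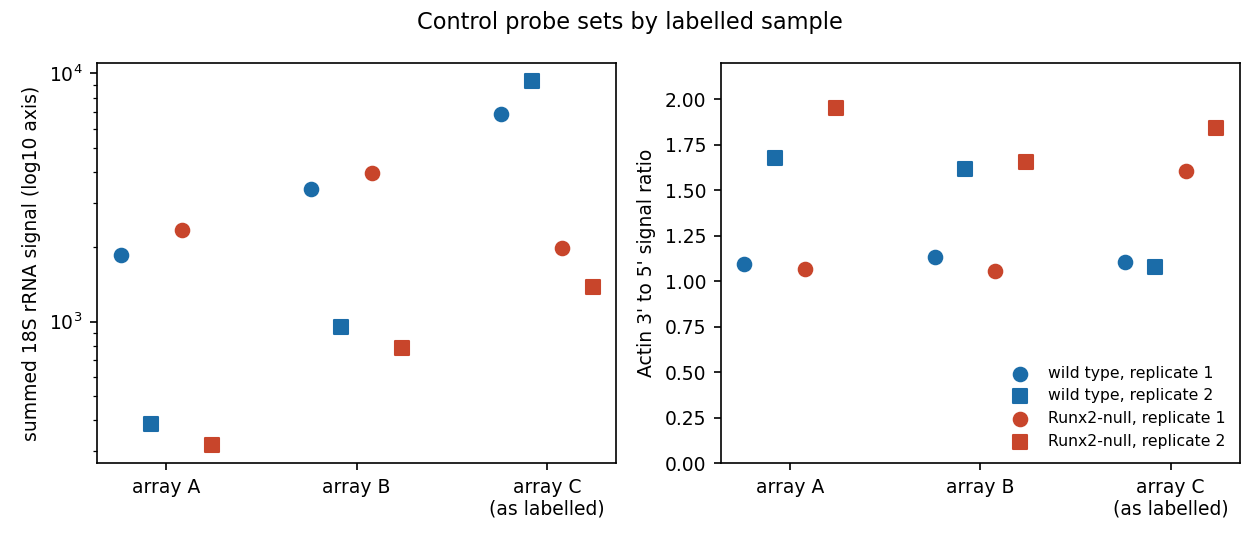
Control probe sets on each of the 12 arrays by labelled sample, with 1 point per array: summed 18S rRNA signal (log10 axis) and the actin 3′ to 5′ signal ratio, for array types A, B and C. On arrays A and B the replicate 1 points stand apart from the replicate 2 points, and on array C the wild-type points stand apart from the Runx2-null points.

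By genotype, the members called lower in Runx2-null humeri were the desaturase Scd1, the fatty acid synthase Fasn and the mevalonate-stage enzymes Fdps and Hmgcs1. With the replicate number in the fit as a block, which compares the genotypes within each scanning batch, 6 of 56 member probe sets fell and none rose. They were 2 probe sets of Scd1, 2 of Fdps, and 1 each of Fasn and Hmgcs1. The share of members that fell, 10.7%, stood beside 1.29% of all 15601 tested probe sets on arrays A and B, and 0.904% of them rose. All 6 were on array A, where 6 of 35 member probe sets fell against 2.25% of all 7745. Without the block, 0 of 71 member probe sets passed in limma on all array types, against 0.0259% of all tested probe sets, which is 6. At an unadjusted p under 0.05 in that fit were 8 of the 71. On arrays A and B these were 4 of 56, against 321 of all 15601. On array C, whose labels are in doubt, they were 4 of 15, against 1471 of all 7592.

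The blocked calls rest on how limma models the spread. Each blocked fit leaves 1 residual degree of freedom, to which the model adds 12.7 on array A from other probe sets of like brightness. Without that trend in brightness, 0 of the 56 member probe sets passed, and the calls over all probe sets on arrays A and B went from 343 to 6. The adjusted p-values of the 6 member probe sets then lay between 0.0891 for Scd1 and 0.306 for Hmgcs1. In bulk RNA, fewer cells of a type and less RNA per cell cannot be told apart.

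Scd1 encodes stearoyl-CoA desaturase, which makes oleate and palmitoleate. One of its array A probe sets read 380 and 464 in wild-type pools 1 and 2 and 112 and 137 in Runx2-null pools 1 and 2. Both Runx2-null pools lay well below both wild-type pools. The difference was -1.70 (SE 0.11, n = 2 pools per genotype), a 3.26-fold lower level, with an adjusted p of 2.55e-06 in limma with the block and 0.123 without it. This probe set carries a shared-probe suffix and was dropped in the setting without suffixed probe sets. That setting drops all names ending in _f_at, _g_at, _i_at, _r_at or _s_at. Probe sets of 1 gene read the same pools and are not separate evidence. A brighter-ranked probe set of the gene read 303 and 588 against 130 and 235, with a difference of -1.24 (SE 0.11, adjusted p 4.51e-05 in limma with the block). Within the pairs that probe set differed by -1.18 in replicate 1 and by -1.30 in replicate 2. The third Scd1 probe set was too dim to test.

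Scd2, the second stearoyl-CoA desaturase of this set, lies near Scd1 on chromosome 19. It read 1988 and 2929 against 1786 and 2491, so the groups overlap. Its difference was -0.19 (SE 0.07, adjusted p 0.199 in limma with the block), and whether it differs from that of Scd1 was not tested.

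Fasn, fatty acid synthase, read 441.5 and 567 against 274 and 312. The groups did not overlap, and both pairs went the same way, by -0.67 and -0.85. The difference was -0.76 (SE 0.10, adjusted p 0.00161 in limma with the block and 0.440 without it). A dimmer probe set on array B, at 65.3 and 66.5 against 42.2 and 49.9, differed by -0.42 (SE 0.27) and did not pass. Acly, which splits citrate into acetyl-CoA, Acaca, the carboxylase that makes malonyl-CoA, and Me1, the malic enzyme that yields NADPH, differed by -0.20, -0.20 and -0.11, none past the threshold. An array B probe set of Me1, at 52.0 and 44.9 against 27.5 and 27.5, differed by -0.60 and did not pass.

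Among the other fatty acid genes, Fads1, a desaturase of polyunsaturated fatty acids, read 275 and 412 against 240 and 308, a difference of -0.30 (SE 0.11, adjusted p 0.175 in limma with the block). Elovl5, which elongates polyunsaturated chains, and Elovl6, which turns palmitate into stearate, differed by -0.04 and -0.03. Elovl1, an elongase of very long chains, had probe sets that disagreed: one on array A read 99.4 and 50.9 against 118 and 63.6, and one on array B read 165 and 102 against 47.7 and 60.0. Their differences were 0.26 (adjusted p 0.460 in limma with the block) and -1.11 (0.0842), and neither passed. The array B probe set carries a suffix for probes shared among related sequences.

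In the mevalonate stage, Fdps, which makes farnesyl diphosphate, read 763 and 1099 in wild-type pools against 504 and 699 in Runx2-null pools. Its difference was -0.62 (SE 0.09, adjusted p 0.00231 in limma with the block and 0.711 without it), and the groups did not overlap. A second Fdps probe set, whose probes are shared among related sequences, read 380 and 768 against 230 and 457, a difference of -0.72 (SE 0.10, adjusted p 0.00161 in limma with the block).

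Hmgcs1, the synthase that makes HMG-CoA, read 297 and 554.5 in wild-type pools against 185 and 414 in Runx2-null pools. The groups overlap, since Runx2-null pool 2 lay above wild-type pool 1. Within the pairs the difference was -0.66 and -0.42, and overall it was -0.54 (SE 0.11, adjusted p 0.0227 in limma with the block and 0.999 without it). With no filter on dim probe sets its adjusted p was 0.0793.

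Members just outside the threshold with the block were Msmo1 at an adjusted p of 0.0545, Tmem97 at 0.0625, Dhcr7 at 0.0787, an array B probe set of Elovl1 at 0.0842, Sqle at 0.0882 and Idi1 at 0.0887 in limma. Msmo1, a methylsterol oxidase of the steps after lanosterol, read 92.1 and 217 against 62.0 and 138, a difference of -0.58 (SE 0.14). Dhcr7, which catalyses the last step to cholesterol, read 95.7 and 102 against 71.0 and 50.6, a difference of -0.66 (SE 0.18). Sqle, squalene epoxidase, and Idi1, the isopentenyl diphosphate isomerase, differed by -0.38 and -0.45, and Cyp51, the lanosterol demethylase, by -0.58 at an adjusted p of 0.105 in limma with the block. In the array A probe sets of Msmo1, Tmem97, Dhcr7, Sqle, Idi1 and Cyp51 the Runx2-null pool lay below the wild-type pool in both pairs. None of these passed. The array A probe set of Elovl1 went the other way, by 0.24 and 0.29. A second Tmem97 probe set, on array B, differed by 0.02 in replicate 1 and by -1.66 in replicate 2. The array B probe set of Cyp51 read 84.1 and 98.9 against 83.8 and 89.3, a difference of only -0.07. That of Idi1 differed by -0.64, and neither passed. Under other settings of the blocked fit Msmo1 did pass: with 4 times the constant (adjusted p 0.0333 in limma), with a 60th percentile filter (0.0384) and without suffixed probe sets (0.0330). With 4 times the constant Dhcr7 and Tmem97 passed too, and without suffixed probe sets Tmem97 did.

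Not every sterol gene leaned that way. Fdft1, squalene synthase, read 174 and 204 in wild-type pools against 152 and 323 in Runx2-null pools, with its pairs on opposite sides at -0.19 and 0.65. Sc5d, a late desaturase, differed by 0.53 on array B and by 0.01 and -0.38 on array A. Ggps1, which makes geranylgeranyl diphosphate, differed by 0.22 to 0.56 on array B and by -0.06 and 0.37 on array A. None of these passed. The remaining enzymes were the kinases Mvk and Pmvk and the decarboxylase Mvd of the mevalonate stage, the cyclase Lss that forms lanosterol, and Tm7sf2, Nsdhl, Hsd17b7 and Ebp, which reshape the sterol rings. The probe sets that stand for these 8 genes differed by -0.41 (Mvd) to 0.19 (Tm7sf2), and none passed. A second Lss probe set, on array B, read 123 and 118 against 101 and 41.7, a difference of -0.76 that did not pass either.

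The control genes of the pathway did not pass either. Srebf1, the SREBP factor for fatty acid genes, read 256 and 341 in wild-type pools against 312 and 331 in Runx2-null pools, a difference of 0.12 (SE 0.11, adjusted p 0.643 in limma with the block). Insig1, which retains SCAP, read 110 and 107.5 against 87.9 and 108, a difference of -0.14 (SE 0.22). Scap read 217 and 308 against 197 and 369, a difference of 0.06 (SE 0.19). In all 3 genes the genotypes overlap and the pairs disagree in sign. Among sterol carriers, Tmem97, a sterol-induced membrane protein, read 414 and 569 against 320 and 435, a difference of -0.37 (SE 0.10). Stard4, a soluble cholesterol carrier, differed by 0.25 (SE 0.20). A second, dimmer Stard4 probe set read 83.7 and 98.6 against 90.0 and 54.0, a difference of -0.32 that did not pass.

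**Figure D2:**
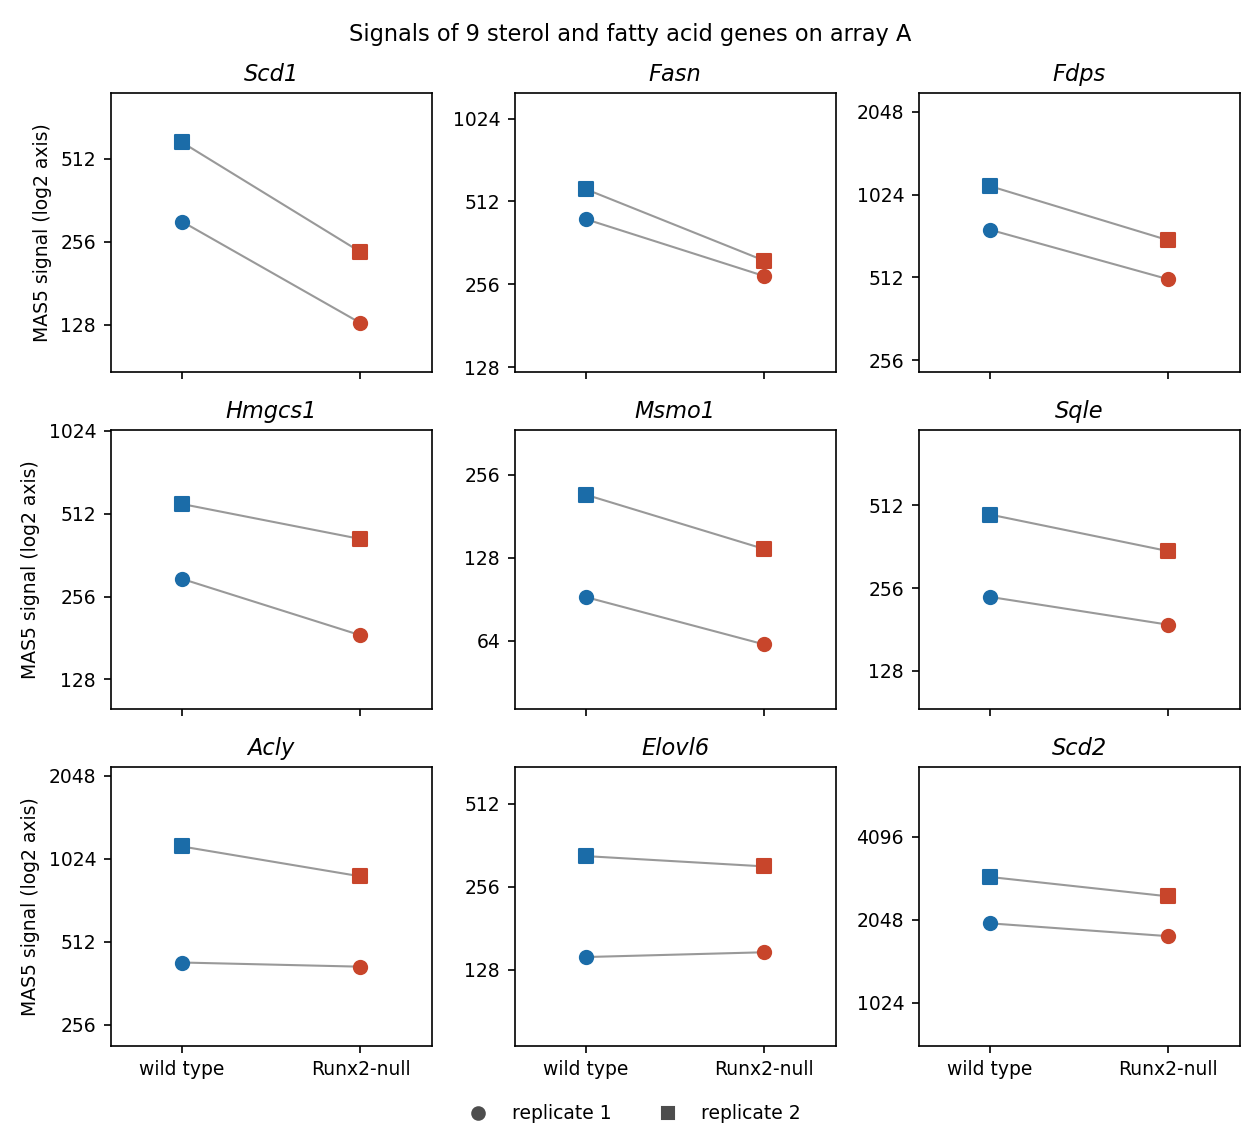
MAS5 signals (log2 axis) of 9 members on array A in the 4 pools, wild type and Runx2-null, with lines joining pools of 1 replicate number. Scd1, Fasn and Fdps lie lower in both Runx2-null pools than in both wild-type pools, and most of the 9 genes lie higher in replicate 2.

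Over the set, 34 of 56 member probe sets (60.7%) were lower in the Runx2-null pool within both replicate numbers, against 28.0% of all tested probe sets on arrays A and B. The other members divide into 9 probe sets that were higher within both numbers and 13 whose pairs went opposite ways. Of all 15601 tested probe sets, 5013 were higher within both numbers. Counted by gene, with the brightest-ranked probe set for each, 20 of 34 genes were lower in both pairs, 6 were higher and 8 went opposite ways. Of all 10032 named genes, 2881 were lower in both pairs, 3251 were higher and 3870 went opposite ways. The median difference was -0.23 over the member probe sets and 0.01 over all tested probe sets. By role, the median over genes was -0.41 for the 7 mevalonate genes, -0.12 for the 11 genes from squalene to cholesterol, -0.20 for the 4 genes of acetyl-CoA supply and fatty acid synthesis, -0.19 for the 7 genes of desaturation and elongation, 0.06 for the 3 SREBP control genes and -0.06 for the 2 sterol carriers.

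The members' median depended on single pools. Over all 3 array types it was -0.18, and it became 0.01 without wild-type pool 2 and -0.43 without wild-type pool 1. Leaving out Runx2-null pool 1 gave -0.06, and leaving out Runx2-null pool 2 gave -0.30. By construction, leaving out a pool leaves the genotypes with unequal shares of the replicate numbers. Scd1, Fasn and Fdps were lower in Runx2-null pools under all 14 settings tried, and Hmgcs1 under 13 of 14, the exception being the fit without Runx2-null pool 1, where it stood at 0.03. These genes were named because they were called lower. The filter, variance trend, array types, suffixes and block cannot alter the difference of a probe set. Only the normalization, the constant and single pools could change it, so the count of settings does not measure robustness.

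**Figure D3:**
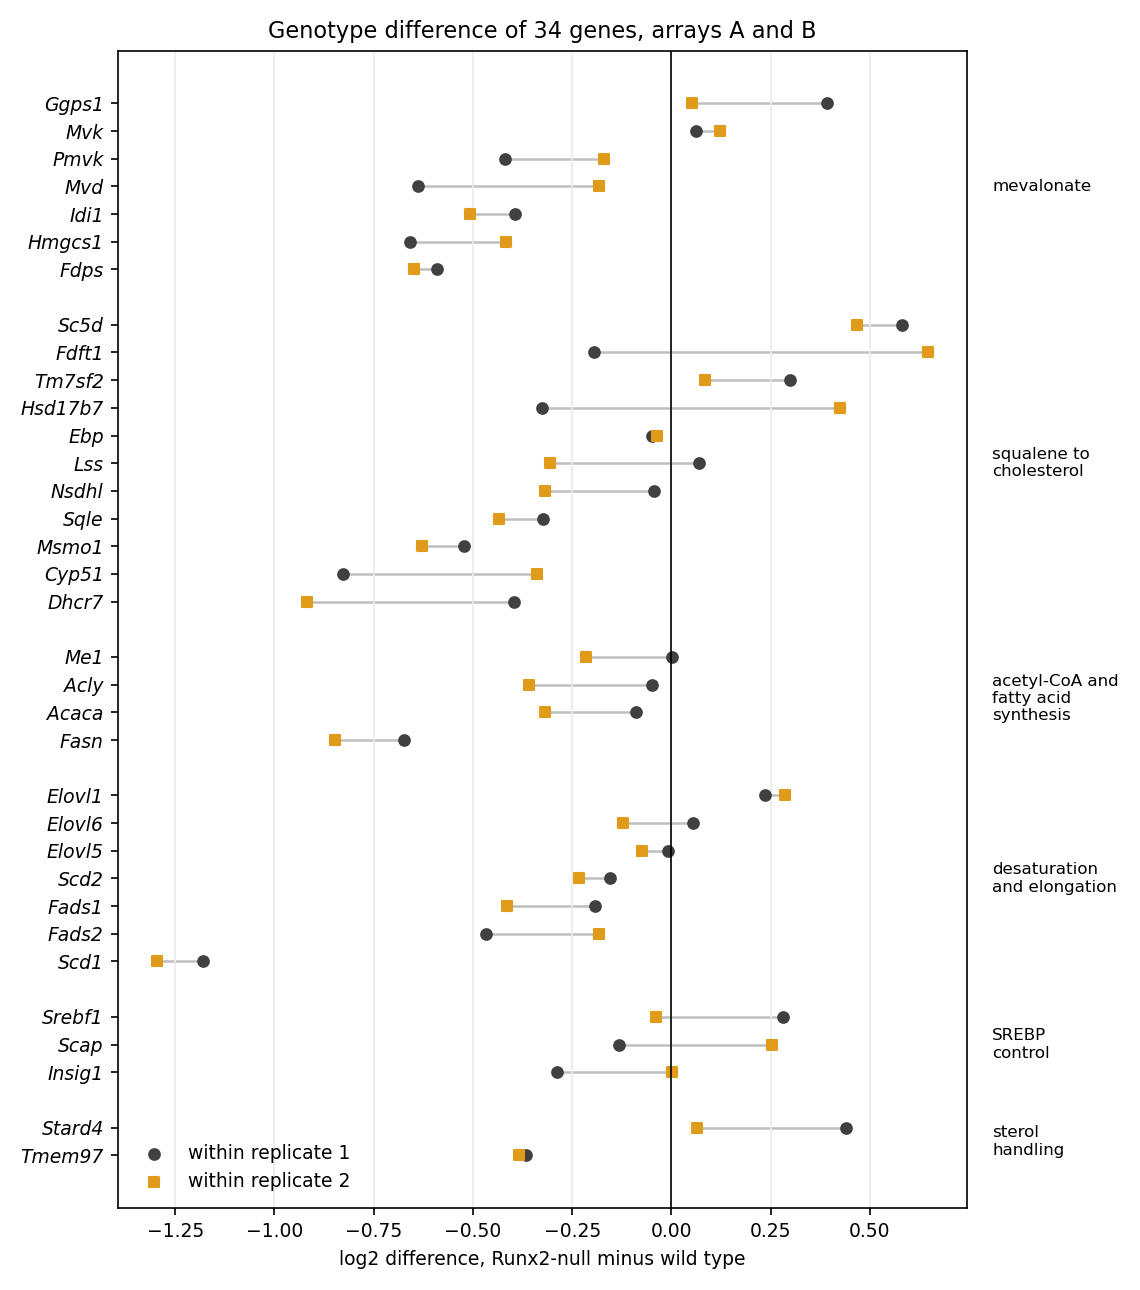
log2 difference, Runx2-null minus wild type, of 34 member genes on arrays A and B by role, with a point within each replicate number and a line joining the pair. Scd1 lies farthest below 0, at -1.18 and -1.30, and the points of each SREBP control gene fall on opposite sides of 0.

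Markers of other cell types were read beside these values. The adipocyte list had 4 of 13 genes tested, with a median genotype difference of 0.11 and 0 called. Its genes were mixed in brightness. Lep read 179 and 96.3 in wild-type pools against 192 and 105.5 in Runx2-null pools. Cebpa read 98.0 and 63.5 against 119 and 61.6, and Lpl 80.0 and 82.9 against 51.5 and 76.7. Retn read 65.5 and 8.3 against 69.7 and 18.5. Adipoq was dim, at 10.2 and 7.0 against 10.3 and 7.7. Pparg, Fabp4, Cidec, Lipe and Ucp1 were likewise dim on every array and not tested. Markers of chondrocytes, known as the main cells of the cartilage model at this age, had a median difference of 0.03 over 12 genes, with Hapln1 lower and Mia higher with the block, and their summed signal was 18848 and 22445 against 21814 and 22975. Endothelial markers had a median of -0.46, with 7 of 8 genes lower in both pairs and 0 called. Of all 10032 named genes, 2881 were lower in both pairs. The summed endothelial signal was 1042.5 and 725 against 831 and 539. Skeletal muscle markers had a median of 0.05 over 12 genes. Their part in the genotype differences was not tested.

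By replicate number, more members passed as higher in replicate 2 than as lower. By the probe set that stands for each gene, Acly, Msmo1, Elovl6 and Hmgcs1 rose most. Each number holds 1 wild-type and 1 Runx2-null pool scanned on 1 type of scanner with 1 setting, so preparation of the pools, RNA handling and scanning cannot be told apart. Of 56 member probe sets on arrays A and B, 21 (37.5%) rose in replicate 2 and 2 (3.57%) fell. Over all tested probe sets on those arrays 11.0% rose and 12.5% fell. On array A, 19 of 35 member probe sets rose (54.3%), against 15.3% of all. On array B, only 2 of 21 rose (9.52%) and 1 fell, where 531 of all 7856 rose and 602 fell. The median over the array B member probe sets was 0.11. Without a trend in the variance model 14 member probe sets passed in place of 23, and without genotype in the model 7 did.

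Acly had the largest rise. It read 430 and 415 in the replicate 1 pools (wild type, then Runx2-null) and 1134 and 884 in the replicate 2 pools, with no overlap. The difference was 1.23 (SE 0.10, adjusted p 4.46e-06 in limma), 2.35-fold, and it was 1.38 in wild-type and 1.08 in Runx2-null pools. Msmo1 followed at 1.12 (SE 0.14, adjusted p 1.75e-04), from 92.1 and 62.0 to 217 and 138. Elovl6 read 142 and 148 in replicate 1 and 331 and 304 in replicate 2, a difference of 1.09 (SE 0.12, adjusted p 5.23e-05), and its second probe set rose by 0.86. Hmgcs1 rose by 1.01, from 297 and 185 to 554.5 and 414 (SE 0.11, adjusted p 4.43e-05).

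Other members that rose lay in every role. In sterol synthesis, by the probe set that stands for each gene, they were Sqle (0.92, from 238 and 188 to 473 and 348), Idi1 (0.77, from 140 and 105 to 255 and 178), Fdft1 (0.64) and Fdps (0.49). Among fatty acid genes they were Scd1 (0.88), Me1 (0.87, from 160 and 160 to 321 and 276), Acaca (0.66, from 264 and 247 to 460 and 366, adjusted p 0.0388 in limma), Scd2 (0.52) and Fads1 (0.46). Scap rose by 0.67 (adjusted p 0.0464 in limma) and Tmem97 by 0.44. Acaca and Scap no longer passed after quantile normalization (adjusted p 0.0706 for each in limma). Fasn did not pass, at 0.27 (SE 0.10, adjusted p 0.0955 in limma), and neither did Srebf1 at 0.24 nor Insig1 at 0.11.

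Both members that fell in replicate 2 belong to desaturation and elongation. Fads2, the desaturase that starts the polyunsaturated pathway, read 799 and 574 in replicate 1 and 262 and 229 in replicate 2 on array B, a difference of -1.42 (SE 0.18, adjusted p 8.85e-04 in limma). Elovl1 read 99.4 and 118 in replicate 1 and 50.9 and 63.6 in replicate 2 on array A, a difference of -0.85 (SE 0.17, adjusted p 0.00332). The 2 numbers do not overlap for either probe set.

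Probe sets of 1 gene often disagreed on this contrast. A second Fads2 probe set read 306 and 251 in replicate 1 and 334 and 146 in replicate 2, a difference of -0.30 that did not pass. The Scd1 probe set with the largest genotype difference differed by 0.28 between replicate numbers, against 0.88 for the other. Both Fdps probe sets rose, by 0.99 and 0.49. On array A, both Sc5d probe sets rose, by 1.02 and 0.96 (adjusted p 0.00192 and 0.00337 in limma), while the array B probe set that stands for the gene, at 0.72, did not pass. Of the Nsdhl probe sets, 1 on array A rose, by 0.57 (adjusted p 0.0287 in limma), and the others did not pass. Idi1 rose on array A while its array B probe set stood at -0.20 and did not pass. Tmem97 and Me1 likewise rose on array A, while their array B probe sets stood at -1.07 and -0.08 and did not pass.

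By gene, 15 of 34 rose, 2 fell and 17 did not pass, where 12.8% of all named genes rose and 10.6% fell. The median over members was 0.44, against 0.02 over all 10032 named genes on arrays A and B. The median was 0.46 in the wild-type pools and 0.45 in the Runx2-null pools. By role it was 0.76 for acetyl-CoA supply and fatty acid synthesis, 0.46 for desaturation and elongation, 0.44 for the mevalonate stage, 0.38 from squalene to cholesterol, 0.24 for SREBP control and 0.13 for the 2 sterol carriers. A difference of the replicate contrast between genotypes could not be tested, since no residual degree of freedom is left.

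**Figure D4:**
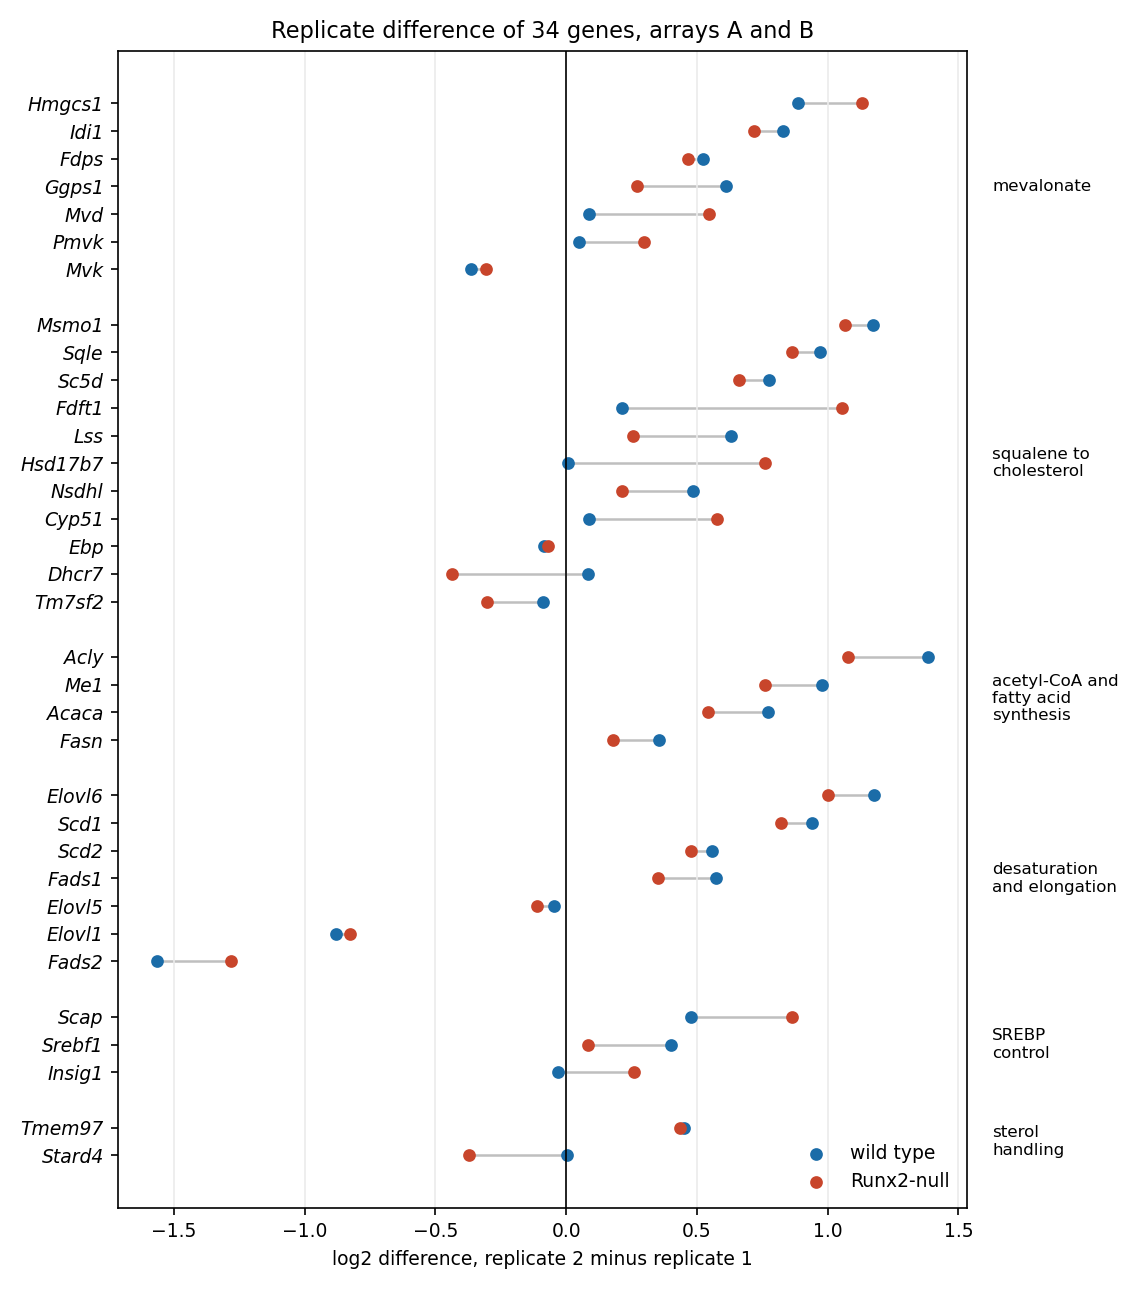
log2 difference, replicate 2 minus replicate 1, of 34 member genes on arrays A and B by role, with a point within each genotype and a line joining them. Acly lies highest on average, at 1.38 and 1.08, and Fads2 lowest, at -1.56 and -1.28.

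Other cell types moved with the replicate number as well. Of 12 skeletal muscle markers, 11 fell in replicate 2, with a median of -2.17, and their summed signal was 4977 and 5850 in the replicate 1 pools and 1364 and 1076 in the replicate 2 pools. Macrophage markers had a median of -0.80 (4 of 7 fell), erythroid markers -0.54 (2 of 6), endothelial markers -0.35 (3 of 8) and adipocyte markers -0.78 (3 of 4). Chondrocyte markers had a median of 0.25, with 4 of 12 risen and 1 fallen. Schwann cell and myelin markers had a median of -0.33 and epidermis markers of 0.06. The part of these cell types, and of the actin ratio and 18S signals given above, in the members' differences was not tested.

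**Figure D5:**
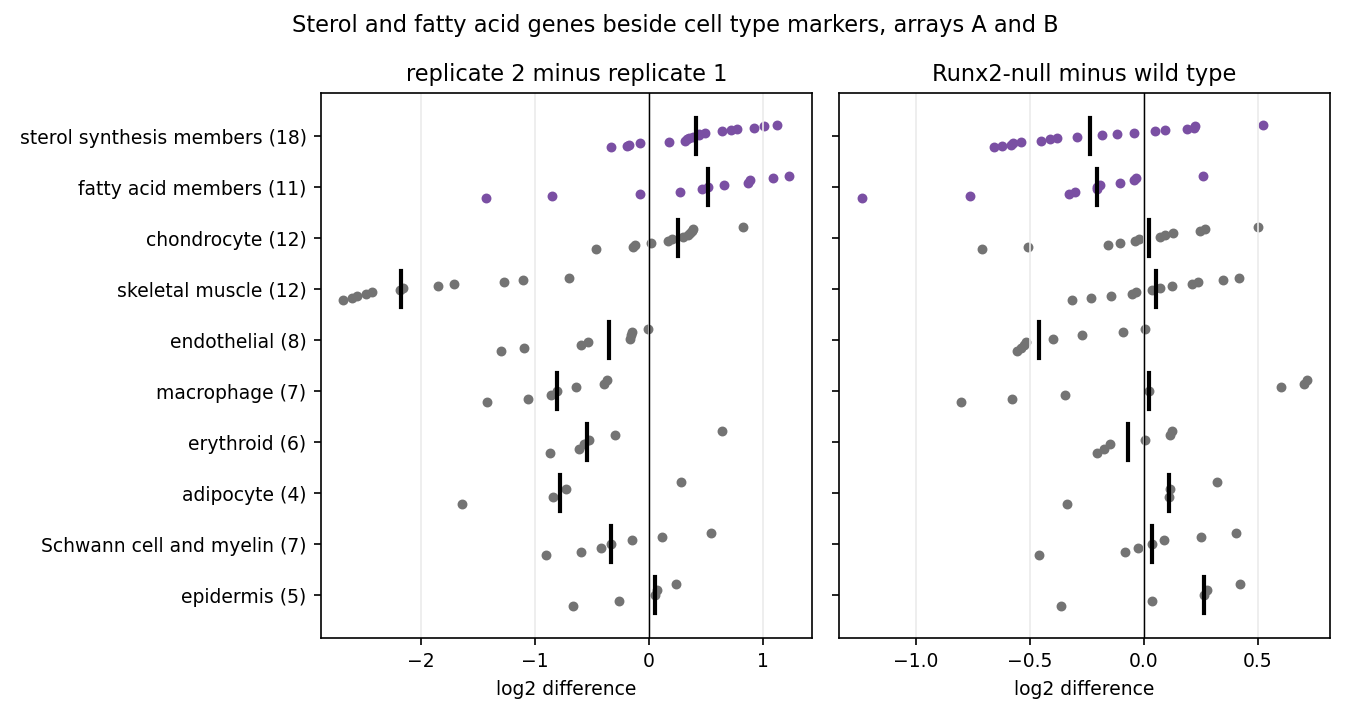
log2 differences of the 18 sterol synthesis members, the 11 fatty acid members and 8 cell type marker lists on arrays A and B, by replicate number (left) and by genotype (right). Each point is 1 gene and each bar is the median of its list. By replicate number, skeletal muscle markers have a median of -2.17 and the members lie mostly above 0.

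Neighbouring pathways were counted from lists of general knowledge, apart from the members. Over all named genes on arrays A and B, 1.48% fell and 0.917% rose by genotype with the block. In sterol uptake, transport and ester storage, 12 of 19 listed genes were tested, and 1 fell by genotype with the block. That gene was Scarb1, the receptor that takes up cholesterol from high-density lipoprotein, at 243 and 294 in wild-type pools against 170 and 166 in Runx2-null pools. Its difference was -0.65 (SE 0.12, adjusted p 0.0168 in limma with the block). By replicate number, Apoe, a lipoprotein component, fell by 0.55 and Stard5, a cholesterol carrier, by 0.85.

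In fatty acid oxidation, which breaks down what the member enzymes build, 15 of 21 listed genes were tested and 1 rose by genotype with the block. Hadh, which acts on short and medium chains, read 159 and 208 in wild-type pools against 251 and 306 in Runx2-null pools. Its difference was 0.59 (SE 0.12, adjusted p 0.0196 in limma with the block), and no oxidation gene passed by replicate number. The list's median was 0.22 by genotype and 0.06 by replicate number.

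The remaining lists had 0 genes called by genotype with the block. They held 8 tested genes of further sterol and isoprenoid synthesis (1 of them at an unadjusted p under 0.05), 10 of SREBP control (3) and 19 of fatty acid synthesis and activation (2). Of all 10032 named genes on arrays A and B, 1555 had an unadjusted p under 0.05 in limma with the block. By replicate number Lbr, a lamin receptor with sterol reductase activity, rose by 0.43. Idh1, which yields NADPH, rose by 0.48, and Acsl3, which activates fatty acids, by 0.75. Of the factors that work with SREBP, Sp1 rose by 1.16, from 806 and 954 to 1613 and 2405, Nfyc rose by 0.36 and Nfya fell by 0.47.

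On array C, with the doubt on its labels, 15 member probe sets were tested. With the block and the labels as given, 1 passed, a Pmvk probe set with shared probes that read 288 and 266 on the wild-type arrays and 670 and 603 on the Runx2-null arrays. Pmvk is phosphomevalonate kinase. Its difference was 1.17 (SE 0.15, adjusted p 0.0247 in limma with the block), against 2.13% of all 7592 probe sets called on that array type in either direction. The array B probe set of Pmvk, at 151 and 156 against 109.5 and 138, differed by -0.29 and did not pass. A Fads2 probe set on array C read 1734 and 1358 against 3649 and 2033. Its difference, 0.82, was opposite in sign to the -0.33 and -0.70 of the array B probe sets, and none of the 3 passed.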

How the data were processed

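The deposited values were linear intensity signals, 1 for each probe set on each array. Per the submitters' processing notes they came from MAS5, of unstated version. Every deposited array had a 2% trimmed mean near 100.1, so no further scaling was applied. Gene names came from the platform annotation, in which 29131 probe sets had 1 symbol, 724 several and 6846 none, and 198 controls were left out. All 91 member probe sets were found in the reference by gene ID.

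Values were log2(signal + constant), with constants of 7, 13 and 10 for arrays A, B and C, the rounded 20th percentile of each type. Probe sets brighter than the 40th percentile on at least 2 of 4 arrays were tested in 1 limma fit per array type (limma 3.58.1, R 4.3.3, lmFit and eBayes with a trend), with Benjamini-Hochberg adjustment over all 23193 tested probe sets. The genotype was fitted with no block and, as the paired fit, with a block for replicate number. The replicate difference was fitted with genotype in the model. The fits were also run on data simulated from the variances of the blocked fit, which cannot check that variance model. The replicate number pairs the arrays, since the array files give each number its own scanner and scan day within a type. Deviations of same-numbered arrays correlated at 0.764 on array A, 0.595 on array B and 0.056 on array C.

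A gene with more than 1 probe set was represented by that of highest mean log2 signal, as a percentile within its array type, on arrays A and B. Members named with values were those called by either contrast, the largest differences per role, and Scd1, Scd2, Fasn, Srebf1, Srebf2 and Insig1. The members, gene lists and tests were chosen with earlier results of these data known. The normalization, constant, filter, variance model, array types, suffixed probe sets, block and single pools were varied. The number of arrays, 2 per genotype and type, limits every value. Not analysed here are Runx2, Spp1, Sp7 and Bglap.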

Additional observations from a re-analysis of the deposited data

How the results depend on the processing

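The count of member probe sets called by genotype was 0 without a block, 7 with the replicate block on all 3 array types and 6 with it on the A and B arrays only, which was chosen after seeing the data. It was 0 to 2 when single pools were left out. Related genes called by genotype went from 0 to 2 with the replicate block, with array C and without it. The count called by replicate number, 23, was 14 without a variance trend and 7 with no genotype term, and related genes so called went from 10 to 6 with no filter and 1 with no genotype term. Leaving out a pool allowed no test of the replicate number, for want of residual degrees of freedom. The members' median genotype difference of -0.18 ran from -0.432 to 0.0114 when single pools were left out. The median replicate difference of 0.29 was 0.35 after quantile normalization, 0.25 with 4 times the constant and 0.19 with no filter. It was 0.33 with a 60th percentile filter, 0.33 on arrays A and B alone and 0.44 without suffixed probe sets. Without single pools it was 0.22 to 0.25. Single genes reversed in sign only when a pool was left out. By genotype they ranged from -0.59 to 0.18 for Acaca, -0.90 to 0.49 for Acly, -0.18 to 0.70 for Elovl1, -0.62 to 0.56 for Elovl6, -1.11 to 0.46 for Fads2, -0.30 to 0.75 for Fdft1, -1.10 to 0.0281 for Hmgcs1, -0.59 to 0.38 for Me1, -1.16 to 0.0114 for Msmo1, -0.37 to 0.49 for Scap, -0.47 to 0.0850 for Scd2, -0.87 to 0.11 for Sqle and -0.0806 to 0.32 for Srebf1. By replicate number they ranged from -0.44 to 0.0832 for Dhcr7, -0.0320 to 0.26 for Insig1 and -0.37 to 0.00230 for Stard4. The cause was not tested, beyond the unequal replicate numbers that leaving out a pool makes by construction. With 2 pools per genotype, signals near background, as for Srebf2 and Acss2, gave no test.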
